A study of Aedes aegypti with 8 samples.

Results

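The 86 genes described here were those of the *Aedes aegypti* midgut whose counts, once scaled to library totals, were higher with heme in every library. The unscaled counts overlapped in some of them, as in AAEL006239 with 424 in 10 µM replicate 1 and 464 in 0 µM replicate 4. They were selected on these same libraries by a rule on CPM (a gene's count per 1000000 counts of its library). The rule first removed the 37 identifiers AAEL018658 to AAEL018694, and then kept a gene where its mean CPM at 10 µM heme was at least 0.5, its lowest 10 µM library lay above its highest 0 µM library, and the ratio of the group means was at least 1.75. Of 19712 identifiers, 86 met it. The same rule turned around, for genes lower with heme in every library, kept 148. Because the 0 µM and 10 µM values chose the members, those values are given as a description and nothing is tested on them.

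Heme is an iron-containing porphyrin, the oxygen-binding group of hemoglobin and a cofactor of cytochromes and many other enzymes. A blood meal delivers a large load of it to the midgut epithelium of the female mosquito, where free heme can damage membranes, proteins and DNA through reactive oxygen. Insect guts are known to limit this damage by binding heme in the lumen, by breaking it down with heme oxygenase, by storing the released iron in ferritin, and by antioxidant and conjugating enzymes. Membrane transporters that move heme or its products into and out of cells are well described in worms and mammals.

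RNA-seq was performed on polyA RNA of midguts dissected from female mosquitoes of the Liverpool strain, 3 to 5 days old and fed on sugar. The midguts were held at 28 °C for 35 h in Schneider's *Drosophila* medium with 0 µM or 10 µM heme, and both groups lacked fetal bovine serum, so that the 0 µM group was held without heme and is not a freshly dissected midgut. Each group had 4 biological replicates, each a pool of midguts, for 8 libraries. All tissue was kept outside the body, and the pools hold every cell type of the gut wall, so fewer cells of a type and less RNA per cell cannot be told apart.

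Total counts ranged from 46027977 to 56947544 per library. The removed identifiers took 0.165% to 0.332% of counts at 0 µM and 6.85%, 0.251%, 1.76% and 3.13% in 10 µM heme replicates 1 to 4, so that 10 µM replicate 1 held the largest share and replicate 2 none above the 0 µM range. The 4 identifiers with a name for midgut proteins (digestive enzymes, peritrophins or mucins) summed to 317 to 386 CPM at 0 µM and to 240 to 300 CPM at 10 µM heme. The 1 visceral muscle identifier with a name had 107 to 140 and 97.6 to 120 CPM, and the 1 blood cell identifier 52.6 to 63.7 and 55.3 to 59.7 CPM. No fat body or ovary name was found, but only 778 identifiers had a name, so this does not show that such tissue was absent. Applied without replicate 1 of both groups, the rule kept 137 genes, 77 of the 86 among them. Without 0 µM replicate 1 and 10 µM replicate 2, it kept 116 genes, 68 of the 86 among them. In the study's multidimensional scaling plot, this latter pair of libraries lay apart from the rest of their groups.

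The ratio of group means of the 86 genes had a median of 2.08 and ran from 1.76 to 34.5. It was at least 2 in 48 genes, at least 3 in 12 and at least 5 in 5. The genes lowered by the turned rule had a similar median of 2.11, with 60.8% at 2 or more against 55.8% of the raised genes, but their ratios ended at 5.41. Mean CPM at 10 µM heme was under 1 in 21 of the raised genes, from 1 to under 10 in 31, from 10 to under 100 in 24, and 100 or more in 10. Most were thus of low count, with a median of 4.69 CPM at 10 µM heme against 7.41 over the 9480 identifiers at 0.5 CPM or more. At the depth of these libraries, 40 of the genes had a count of 100 or more in every library, 12 had a count under 10 in some library, and 1 had a count of 0.

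Among the 9480 identifiers at the CPM floor, 3.23% had groups that did not overlap with the 10 µM libraries on top, and 0.907% met the whole rule. The edgeR exact test, fitted on all identifiers past its count filter, called 2.22% of 11095 higher with heme at adjusted p 0.05, and 79 of the 85 raised genes it tested. The quasi-likelihood test of edgeR called 1.32% and 55 of the 85, and DESeq2 called 2.87% of 10841 and 78 of 86. The rule used this contrast, so these counts of members carry no weight of their own. The gene left out by the filter was AAEL002490. No tested gene was over the filter's count minimum in its 10 µM libraries alone. However, 10 of the 85 were over it in no more than 3 of the 4 libraries at 0 µM. The filter asked for 4 libraries, so these 10 passed only with the help of 10 µM libraries, where the rule made them high.

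**Figure D1:**
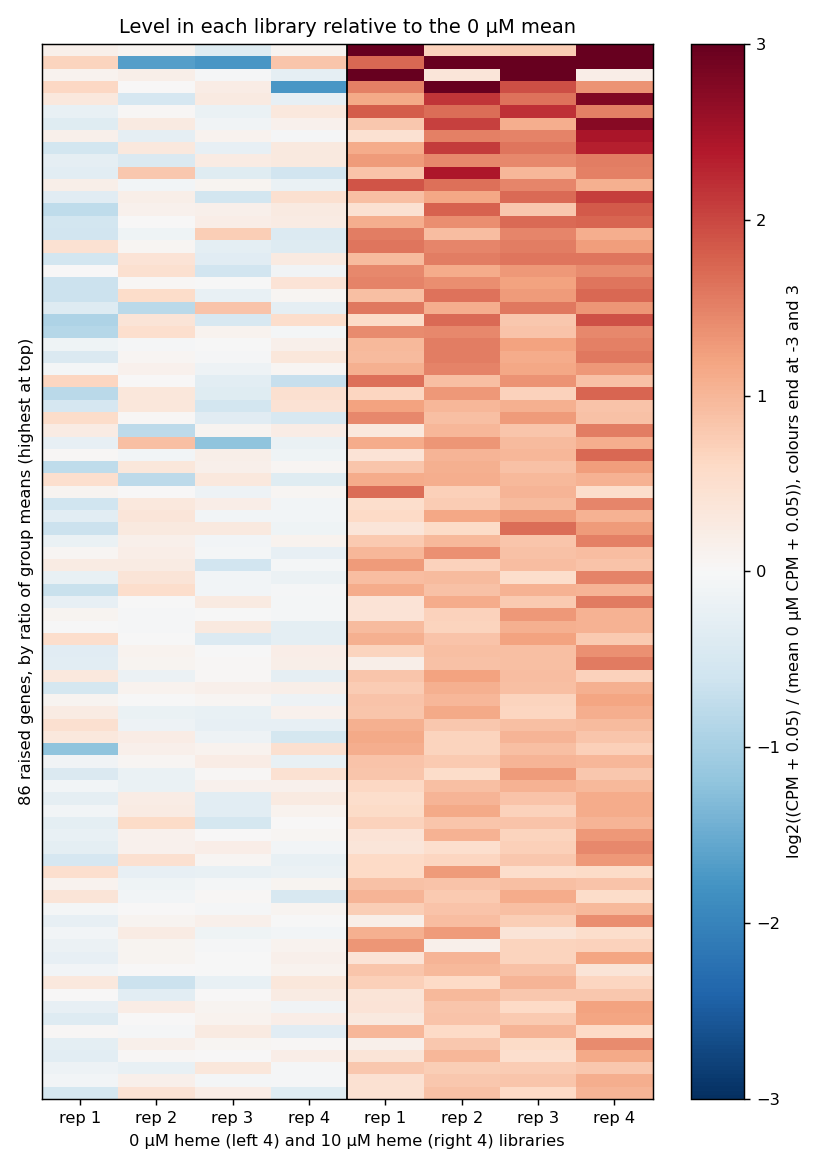
Level of each of the 86 raised genes (lines, in order of the ratio of group means) in the 8 libraries (columns), as log2 of CPM plus 0.05 over the mean 0 µM CPM plus 0.05, with colours ending at a change of 3 in either direction. The 10 µM heme columns are red throughout by the rule, and the shade differs most between the 4 of them in the upper lines, where ratios reach 34.5.

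The edges of the set were close to genes outside it. Just inside the ratio lay AAEL024558, AAEL003540 and AAEL025604 (each 1.76), and just outside lay AAEL022334, AAEL006620 and AAEL011952 (each 1.75 after rounding, and under the threshold). AAEL022334 was counted far more often than any of the raised genes, with means of 5900 CPM at 0 µM and 10322 CPM at 10 µM heme. On the floor, AAEL010221 lay inside with a mean of 0.503 CPM at 10 µM and AAEL002506 outside with 0.441 CPM. On the separation of the groups, the lowest 10 µM library of AAEL006239 was 1.00 times its highest 0 µM library, and that of AAEL008164, outside, was 0.973 times. The ratio of the lowest 10 µM to the highest 0 µM library, called the gap here, had a median of 1.26 over the 86 genes, was under 1.1 in 18 and was 1.5 or more in 21. Gap and ratio do not measure the same thing, since AAEL001513, with a ratio of 6.005, had a gap of 1.02.

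**Figure D2:**
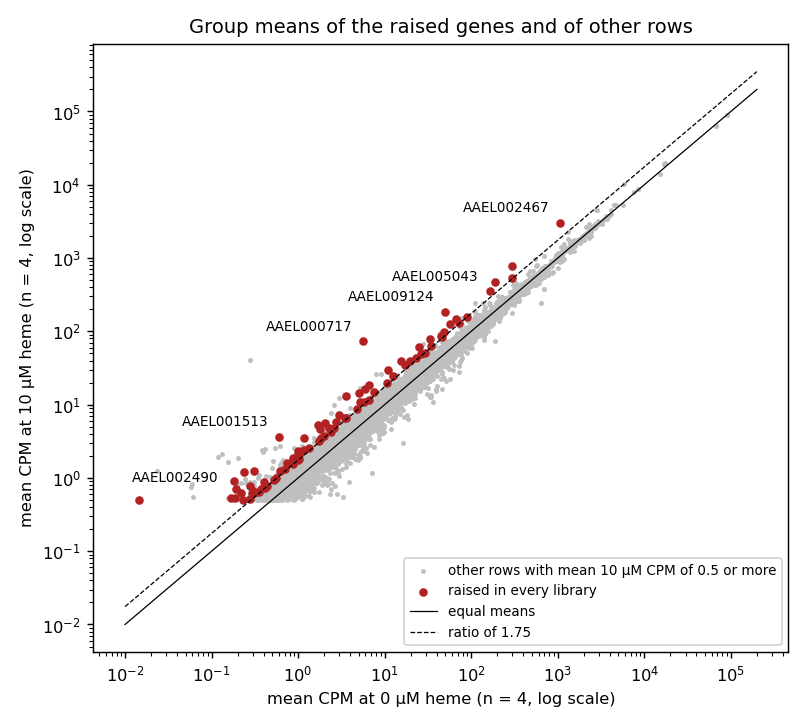
Mean CPM at 10 µM heme (vertical, log scale) against mean CPM at 0 µM heme (horizontal, log scale), n = 4 libraries each, for the 86 raised genes in red and the other identifiers with 0.5 CPM or more at 10 µM in grey. The red points lie above the dashed line of ratio 1.75 over the whole range of levels, and AAEL000717 and AAEL002490 lie farthest from it.

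Of the 86 genes, 4 carried a descriptive name in the study's text or tables, and these concern transport, conjugation, sulfur metabolism and purine synthesis. AAEL005043 is named ATP-dependent bile acid permease, a name that in yeast belongs to an ATP-binding cassette (ABC) transporter of the vacuole membrane. In replicates 1 to 4, its CPM was 166, 153, 183 and 150 without heme and 216, 329, 324 and 534 at 10 µM. The 0 µM libraries were close together, while 10 µM replicate 4 was well above the other 10 µM libraries and replicate 1 not far above the 0 µM range. The means were 163 ± 14.9 and 351 ± 133 CPM (SD, n = 4), a ratio of 2.15 that ran from 1.78 (without 10 µM replicate 4) to 2.43 with single libraries left out.

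AAEL014246 is named a glucosyl/glucuronosyl transferase, an enzyme class that attaches sugars to small lipophilic molecules and makes them easier to excrete. Its counts were 25, 68, 40 and 77 at 0 µM and 79, 139, 81 and 191 at 10 µM heme. The groups lay apart by a narrow margin, as the lowest 10 µM count stood beside the highest 0 µM count and only the library totals set them further apart, at 1.58 and 1.40 CPM. In both groups replicates 2 and 4 were above replicates 1 and 3. The mean went from 0.996 ± 0.409 to 2.30 ± 0.886 CPM (SD, n = 4), a ratio of 2.31.

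AAEL008467 is named cysteine synthase, the enzyme that in plants and bacteria makes cysteine, the sulfur amino acid from which glutathione is built. Its counts were 45, 138, 102 and 96 at 0 µM and 247, 279, 164 and 277 at 10 µM heme. Of the 10 µM libraries, replicates 1, 2 and 4 were nearly equal at 4.95 to 5.04 CPM and replicate 3 was lower at 3.30 CPM, while at 0 µM replicate 1 was lowest. The mean went from 1.81 ± 0.659 to 4.58 ± 0.850 CPM (SD, n = 4), a ratio of 2.52.

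AAEL005384 is named a putative phosphoribosylformylglycinamidine synthase, which carries out a step of purine synthesis. Its interval in the study's tables lay wholly within the RefSeq protein-coding gene LOC5566442, on chromosome 3 of AaegL5.0 from 235711305 to 235733170 (21866 bases), the only one of the 86 that could be placed. Counts were 903, 1337, 1222 and 1313 at 0 µM and 1516, 2642, 1802 and 3135 at 10 µM heme. As in AAEL014246, replicates 2 and 4 were the high libraries of the 10 µM group. The mean went from 23.0 ± 2.31 to 42.8 ± 11.8 CPM (SD, n = 4), a ratio of 1.86.

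**Figure D3:**
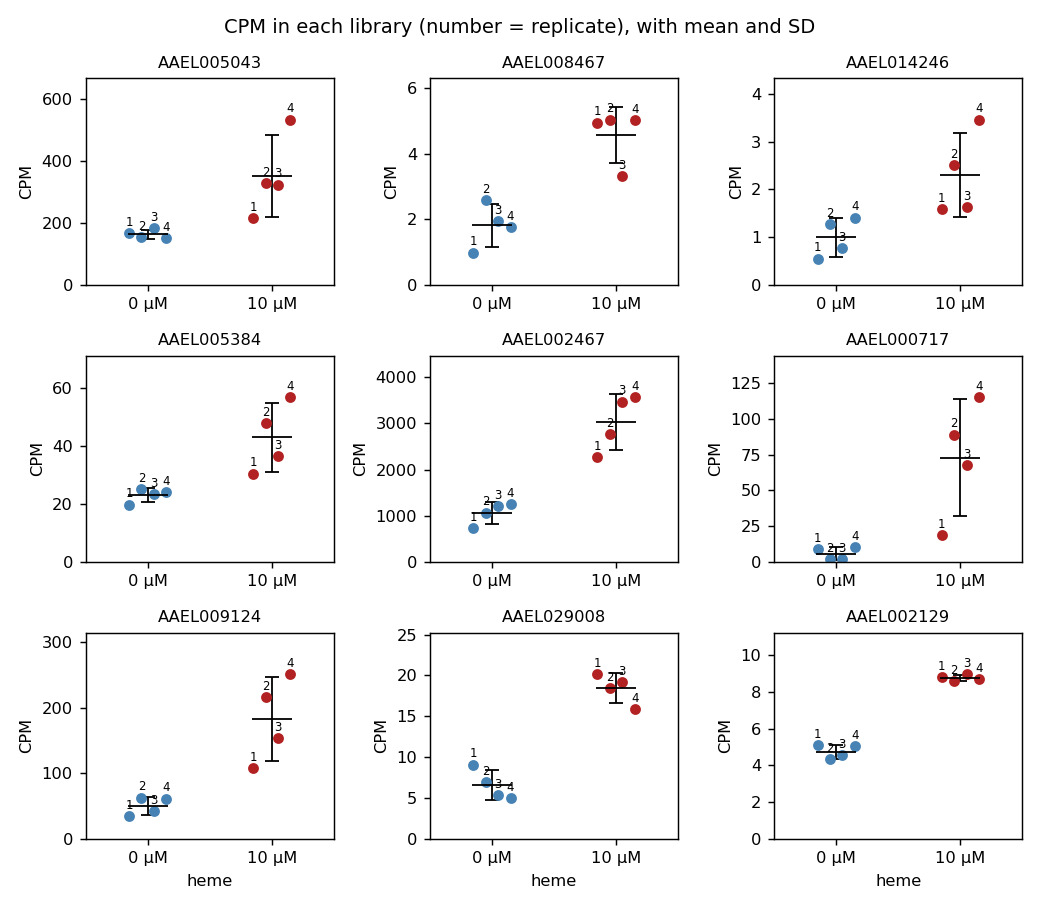
CPM in each library for 9 of the raised genes, with 0 µM heme in blue and 10 µM heme in red, the replicate number beside each point, and the mean and SD of each group (n = 4) as bars. The order of the 10 µM replicates differs between genes, with replicate 1 lowest in AAEL000717 (18.6 CPM) and highest in AAEL029008 (20.2 CPM), and with all replicates together in AAEL002129 (8.60 to 8.98 CPM).

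The study listed 12 genes with several membrane spans as raised by heme, and 6 of the 86 genes were on that list. It had first removed gene products with known functions other than transport, so the list is not every such gene it called. The list was chosen on these same samples and is no independent evidence of direction. Besides AAEL005043 the 6 had no known name. In AAEL021284, CPM was 3.97, 5.63, 3.41 and 6.97 at 0 µM and 9.43, 11.2, 16.4 and 21.1 at 10 µM heme, a ratio of 2.91 with both groups widely spread. AAEL029008 had 9.09, 6.92, 5.35 and 5.00 CPM at 0 µM and 20.2, 18.4, 19.2 and 15.9 CPM at 10 µM heme. Here replicate 1 was the highest and replicate 4 the lowest in both groups, and the lowest 10 µM library was still 1.75 times the highest 0 µM library. The ratio of its means was 2.80.

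AAEL002129 differed from these in its small spread. Its CPM was 5.10, 4.32, 4.55 and 5.04 at 0 µM and 8.81, 8.60, 8.98 and 8.70 at 10 µM heme. The coefficient of variation was 1.89% at 10 µM, the smallest of the 86 genes, although the ratio of means was only 1.85. AAEL002599 (3.47 ± 0.902 to 6.64 ± 0.955 CPM, SD, n = 4) and AAEL028119 (10.6 ± 1.25 to 19.4 ± 6.56 CPM, SD, n = 4) had ratios of 1.91 and 1.83. In AAEL028119 the lowest 10 µM library, replicate 1 with 12.0 CPM, was next to the highest 0 µM library with 11.8 CPM, and the ratio without 10 µM replicate 4 was 1.57.

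The other 6 genes of the list stayed outside because their ratios were under 1.75. Groups did not overlap in 4 of these, namely AAEL022465 (1.71), AAEL027424 (1.59), AAEL006855, a UDP-galactose transporter (1.38), and AAEL012395, an ABC transporter (1.30). The groups overlapped in AAEL023104 (1.29) and AAEL018150 (1.20).

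Larger ratios were found in genes with no name. The highest, in AAEL002490, rested on very few reads at 0 µM, where its counts were 1, 1, 0 and 1. At 10 µM heme they were 61, 3, 3 and 38, so that replicates 1 and 4 held nearly all of them and replicates 2 and 3 stood just above the 0 µM libraries. The ratio of the summed counts, 105 over 3, was 34.4 with a 95% exact interval of 11.5 to 170, which covers counting error only. That interval leaves out the spread between libraries and the choice of this gene by its ratio, so it is no test of a rise. The ratio of mean CPM of 34.5 fell to 18.2 without 10 µM replicate 1 and reached 44.7 with another library left out.

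AAEL000717 had the next highest ratio, 12.96. Its counts were 413, 94, 86 and 552 at 0 µM and 927, 4930, 3372 and 6374 at 10 µM heme. The 0 µM libraries fell into a high pair, replicates 1 and 4, and a low pair, replicates 2 and 3. At 10 µM replicate 1 was far below the rest, with 18.6 CPM against 67.9 to 116 CPM. The ratio was 10.4 to 17.6 with single libraries left out.

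In AAEL001513 a different pair of libraries was high. Its counts were 30, 37, 31 and 27 at 0 µM and 286, 44, 365 and 39 at 10 µM heme. Replicates 1 and 3 at 10 µM were thus about an order of magnitude above the 0 µM libraries, while replicates 2 and 4 were barely above them, at 0.795 and 0.707 CPM against a highest 0 µM value of 0.692 CPM. Its ratio of 6.005 fell to 3.97 without 10 µM replicate 3 and was at most 7.62. Under TMM scaling (edgeR's correction of library totals), its lowest 10 µM library was 0.961 times the highest 0 µM library, so the groups then overlapped.

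AAEL007708 and AAEL027086 had ratios of 5.06 and 5.01 on low counts. Counts of AAEL007708 were 18, 13, 15 and 2 at 0 µM and 39, 129, 52 and 38 at 10 µM heme. Replicate 2 stood out at 10 µM, and without it the ratio was 3.51. Counts of AAEL027086 were 11, 6, 12 and 8 at 0 µM and 23, 54, 33 and 85 at 10 µM heme. Here replicate 4 was highest, and the ratio without it was 3.86.

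AAEL020339 and AAEL026670 combined large ratios with large gaps. Their coefficients of variation at 10 µM heme were 22.3% and 7.68%, so only the second had little spread. AAEL020339 had counts of 12, 17, 14 and 22 at 0 µM and 61, 61, 80 and 54 at 10 µM, a ratio of 3.94 and a gap of 2.44. AAEL026670 had counts of 6, 6, 11 and 12 at 0 µM and 24, 30, 27 and 32 at 10 µM, a ratio of 3.20 and a gap of 2.20. In both genes every 10 µM library was over 2 times the highest 0 µM library, which held otherwise among the 86 genes only for AAEL002490.

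The remaining genes of ratio 3 or more were AAEL010480, AAEL012101, AAEL009124, AAEL006686 and AAEL024690. In AAEL010480, CPM was 2.77 to 4.28 at 0 µM and 6.31, 14.8, 7.64 and 23.7 at 10 µM heme, with replicates 2 and 4 high and a ratio of 3.69. AAEL012101 showed 0.280, 0.632, 0.625 and 1.25 CPM at 10 µM heme against 0.150 to 0.218 CPM at 0 µM, and its ratio of 3.67 was 2.70 without 10 µM replicate 4. AAEL006686 had a ratio of 3.07, but its highest 0 µM library, replicate 2 with 3.03 CPM, was next to its lowest 10 µM library with 3.12 CPM. AAEL024690 had 1.02 to 1.33 CPM at 0 µM and 4.51, 3.79, 3.34 and 2.50 CPM at 10 µM heme, so that all its 10 µM libraries lay well above, and its ratio was 3.00.

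Together the 86 genes took 0.285% of the kept counts at 0 µM and 0.702% at 10 µM heme. In replicates 1 to 4, their summed CPM was 2370, 2842, 3178 and 3006 at 0 µM and 5772, 6811, 7338 and 8170 at 10 µM heme. Replicate 1 was the lowest library of both groups. The means were 2849 ± 347 and 7023 ± 1004 CPM (SD, n = 4), with a ratio of 2.47. A few genes set the sum, since AAEL002467 alone gave 43.1% of it at 10 µM and the 5 genes of highest CPM gave 73.6%. Without those 5 the ratio was 2.20. CPM is not corrected for gene length, which was not matched here, so the levels of different genes are not ordered.

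AAEL002467 had 724, 1063, 1211 and 1250 CPM at 0 µM and 2276, 2776, 3474 and 3578 CPM at 10 µM heme. In both groups CPM was lower in replicate 1 than in the other libraries, and every 10 µM library was at least 1.82 times the highest 0 µM library. The ratio of its means was 2.85. AAEL001690 had 230, 171, 543 and 249 CPM at 0 µM and 889, 631, 891 and 746 CPM at 10 µM heme. Its 0 µM replicate 3 was far above the other 0 µM libraries and close to the 10 µM range, and the ratio of 2.65 was 3.64 without that library.

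AAEL011741 had a narrow 0 µM group, with 174, 185, 189 and 212 CPM, and 371, 549, 438 and 539 CPM at 10 µM heme. All 10 µM libraries were well above it, and the ratio was 2.50. AAEL000759 went from 293 ± 34.4 to 528 ± 123 CPM (SD, n = 4), a ratio of 1.80, with 391, 592, 467 and 664 CPM in the 10 µM libraries. The high libraries of both genes at 10 µM heme were replicates 2 and 4.

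The rest of the 10 genes at 100 CPM or more were AAEL009124, AAEL019648, AAEL020452, AAEL004700 and AAEL005142, besides AAEL005043. AAEL019648 had 73.5 to 99.3 CPM at 0 µM and 100.3, 158, 135 and 241 CPM at 10 µM heme, and its ratio of 1.76 fell to 1.46 without 10 µM replicate 4. AAEL020452 had 56.8, 125, 29.2 and 58.8 CPM at 0 µM against 130 to 168 CPM at 10 µM heme. Its 0 µM replicate 2 reached nearly the 10 µM range, and the ratio of 2.18 was 3.04 without that library. AAEL004700 had 66.0 to 85.7 CPM at 0 µM and 152, 175, 93.9 and 104 CPM at 10 µM heme, with replicates 1 and 2 high. AAEL005142 was highest in replicate 1 of each group (84.3 and 155 CPM), and its other libraries had 41.3 to 58.1 CPM at 0 µM and 105 to 139 CPM at 10 µM heme. Its ratio was 2.21.

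The last gene with a gap among the 10 highest, AAEL019574, had 2.70 to 3.29 CPM at 0 µM and 6.33 to 8.54 CPM at 10 µM heme, a ratio of 2.43 and a gap of 1.92. The spread over single libraries left out was small, from 2.29 to 2.54.

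Over the whole set the ratio threshold was not held equally firmly. In 57 of the 86 genes the ratio stayed at 1.75 or more whichever library was left out, and in 29 it fell below without some library. By library, 16 genes fell below without 0 µM replicate 1, in which many of the genes were low, and 13 without 10 µM replicate 4, against 4 to 8 for each of the other 6 libraries. In AAEL001513 and AAEL002490 leaving out 1 library moved the ratio by over 1.5 times.

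Within a group the 86 genes did not share 1 order of the libraries. At 10 µM heme the highest library was replicate 4 in 39 genes, replicate 1 in 17, replicate 2 in 15 and replicate 3 in 15. Over the 9480 identifiers at the floor, replicate 4 was likewise the most frequent, in 51.5% against 45.3% of the raised genes. Replicates 2 and 4 were both above 1 and 3 in 33 genes, AAEL000717, AAEL009124 and AAEL010480 among them, which is 38.4% against 41.1% of the identifiers at the floor. In 19 genes, including AAEL001513, AAEL001690 and AAEL029008, replicates 1 and 3 were both above 2 and 4 (22.1% against 14.9%). Of the 3655 pairs of raised genes, 54.0% had a positive correlation over the 4 libraries at 10 µM heme, a description over few libraries that share their totals. Among the genes lowered by the turned rule, 54.3% of pairs had a positive correlation.

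At 0 µM heme, replicate 1 was the lowest library in 41 of the genes (47.7%, against 43.5% of the identifiers at the floor), and the highest was replicate 2 in 27 (31.4%, against 33.3%), replicate 4 in 27 (31.4%, against 16.4%), replicate 1 in 21 (24.4%, against 28.2%) and replicate 3 in 11 (12.8%, against 22.1%). Replicate 1 was the lowest library of both groups in 31 genes, 36.0% against 34.8%. The reverse, replicate 1 highest in both groups, was found in 9 genes (10.5%, against 15.7%), namely AAEL001696, AAEL002005, AAEL002490, AAEL002599, AAEL003740, AAEL005142, AAEL017320, AAEL024690 and AAEL029008. AAEL017320 is an example, with 52.4, 34.1, 26.9 and 20.9 CPM at 0 µM and 106, 63.3, 85.0 and 62.2 CPM at 10 µM heme. Its ratio was 2.36. The median coefficient of variation of the raised genes was 22.1% at 0 µM and 20.8% at 10 µM heme, against 15.2% and 16.4% over the identifiers at the floor, whose counts were higher in the median. It was 20.8% and 20.6% in the genes lowered by the turned rule, so the wider spread was not particular to the raised genes.

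Some of the genes had neighbouring identifiers, a pattern singled out after the values were seen. Identifiers are numbers given at annotation, and positions were not matched, so closeness of numbers is all that is described. In 16 of the 86 genes (18.6%) another raised gene lay within 10 identifier numbers, and 6.72% of the identifiers at the floor had a raised gene within that distance. They formed 6 groups. Of these, 5 were pairs, AAEL001690 with AAEL001696, AAEL002488 with AAEL002490, AAEL003738 with AAEL003740, AAEL007669 with AAEL007670, and AAEL009783 with AAEL009788. No raised gene had counts within 2% of those of another identifier in all libraries, so none was the same reads counted under 2 names at that tolerance.

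The sixth group held 6 genes, AAEL009124, AAEL009127, AAEL009128, AAEL009130, AAEL009132 and AAEL009137. With totals that included the removed identifiers, AAEL009127 had overlapping groups (gap 0.964) and AAEL009132 a ratio of 1.72, so neither met the rule. In AAEL009124, CPM was 34.3, 63.0, 42.5 and 61.4 at 0 µM and 108, 217, 153 and 252 at 10 µM heme, a ratio of 3.63. AAEL009127 had 8.11, 20.3, 11.1 and 22.2 CPM at 0 µM and 22.9, 50.4, 26.9 and 57.8 CPM at 10 µM heme, a ratio of 2.56. In these genes replicates 2 and 4 were above replicates 1 and 3 in both groups. AAEL009128 went from 49.2 ± 7.41 to 97.2 ± 20.8 CPM (SD, n = 4), a ratio of 1.98, with replicate 4 highest at 127 CPM. The other 3 were of low count, AAEL009130 with 0.785 to 1.20 CPM at 0 µM and 1.56 to 2.26 CPM at 10 µM heme, AAEL009132 with 0.828 to 1.16 and 1.32 to 2.36 CPM, and AAEL009137 with 0.109 to 0.343 and 0.397 to 0.641 CPM. Their ratios were 1.95, 1.77 and 2.80.

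At the floor, 10 other identifiers lay in the same window, and 8 of them had a higher mean with heme, as did 45.5% of all identifiers at the floor. Only AAEL009126 had groups apart, with 91.7 ± 9.34 CPM at 0 µM and 137 ± 11.0 CPM at 10 µM heme (SD, n = 4) and a ratio of 1.49. The 10 ranged from 0.832 to 1.49, with a median of 1.21. In the windows of the 5 pairs the medians of the other identifiers were 0.973 to 1.04.

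**Figure D4:**
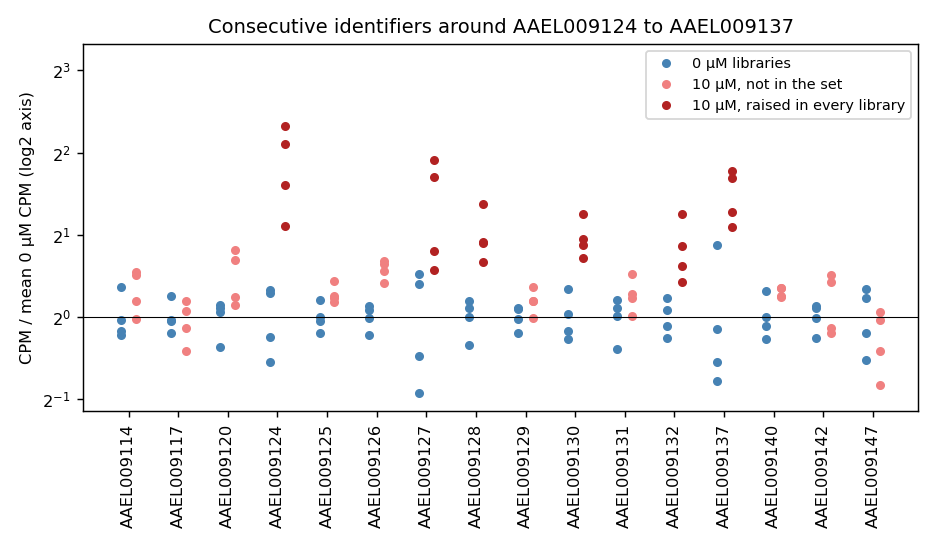
CPM over the mean 0 µM CPM of the same gene (log2 axis) for the identifiers from AAEL009114 to AAEL009147 with 0.5 CPM or more at 10 µM, in order of identifier number and not of distance, each point a library. The 6 raised genes (dark red) have ratios of means of 1.77 to 3.63, and the 10 others between and beside them (light red) have ratios of 0.832 to 1.49.

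Between AAEL003738 and AAEL003740 the numbering held a gene of the opposite direction. AAEL003738 had 44.97, 32.7, 35.6 and 24.9 CPM at 0 µM and 70.0, 59.8, 74.7 and 50.5 CPM at 10 µM heme, and AAEL003740 had 62.4, 40.3, 37.4 and 37.5 CPM and then 93.3, 78.2, 83.6 and 85.3 CPM. AAEL003739 had 34.4, 22.03, 13.7 and 17.1 CPM at 0 µM and 11.8, 10.4, 7.35 and 11.5 CPM at 10 µM heme, and was among the 148 genes of the turned rule. The ratios were 1.85, 1.92 and 0.470, in that order. Whether counting used strand was not stated in the sources read, so reads of overlapping genes on opposite strands cannot be told apart. Under TMM scaling the groups of AAEL003738 touched, its lowest 10 µM library being 0.998 times the highest 0 µM library.

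Names from the study's tables were also searched for gene classes known in the handling of heme and of its damage, over the 778 identifiers with a name. The counts higher in the mean stand beside 45.5% for all identifiers at the floor. Of 8 named ABC transporters 1, AAEL005043, was among the 86 genes, and 3 of the 8 had a higher mean with heme. AAEL005043 was also the 1 member among 46 names of transporters, permeases and channels, where 11 of the 43 at the floor were higher in the mean. Of 11 names of detoxification enzymes 1 was a member, AAEL014246, with 7 of the 10 at the floor higher in the mean. Of 12 redox names 1 was a member, AAEL008467, with 4 higher in the mean. None of the 3 iron and heme names, the 21 heat shock and protein folding names, the 21 protease names, the 13 immunity names and the 11 transcription factor names was a member. Over all identifiers at the floor 0.907% were members, and 82 of the 86 had no name, so these counts describe only the part of the table that is named. AAEL005043 was named in the study's list of membrane genes, chosen on these same samples. AAEL008467 and AAEL014246 were named where the study describes genes raised by heme in a cultured cell line. Their names thus entered through a rise with heme, and the counts of members by class cannot be weighed against the 0.907%.

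The rule was last applied to 3 libraries per group, and the genes it picked were read in the 2 libraries it had not used, 1 of each group. In the 16 ways of holding out such a pair it picked 91 to 222 genes, of which 60 to 79 were among the 86. The held-out 10 µM library was higher than the held-out 0 µM library in 56.8% to 94.7% of the picked genes, with a median of 80.9%, against 31.7% to 63.1% of all identifiers at the floor. The share of the picked genes was above that of the identifiers at the floor in each of the 16 pairs. Picked genes that were among the 86 were higher in the held-out pair by the rule of the set itself. The share therefore describes the rule and is no separate support for the 86 genes. The median ratio of the picked genes in the held-out pair was 1.07 to 2.09, with a median of 1.63 over the pairs, against 0.851 to 1.11. A ratio of 1.75 or more was kept by 18.9% to 64.8% of the picked genes, against 2.23% to 14.8%.

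The held-out pairs differed by library. The lowest share, 56.8%, came with 0 µM replicate 2 and 10 µM replicate 1 held out, where the rule also picked the most genes, 222. With 0 µM replicate 3 and 10 µM replicate 3 held out the share was 94.7% of 113 genes. With replicate 1 of both groups held out it was 85.4% of 137 genes, at a median ratio of 1.58. With 0 µM replicate 1 and 10 µM replicate 2 held out it was 77.6% of 116 genes, at a median ratio of 1.74. The 16 pairs share libraries and are not independent, so no test was made over them.

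**Figure D5:**
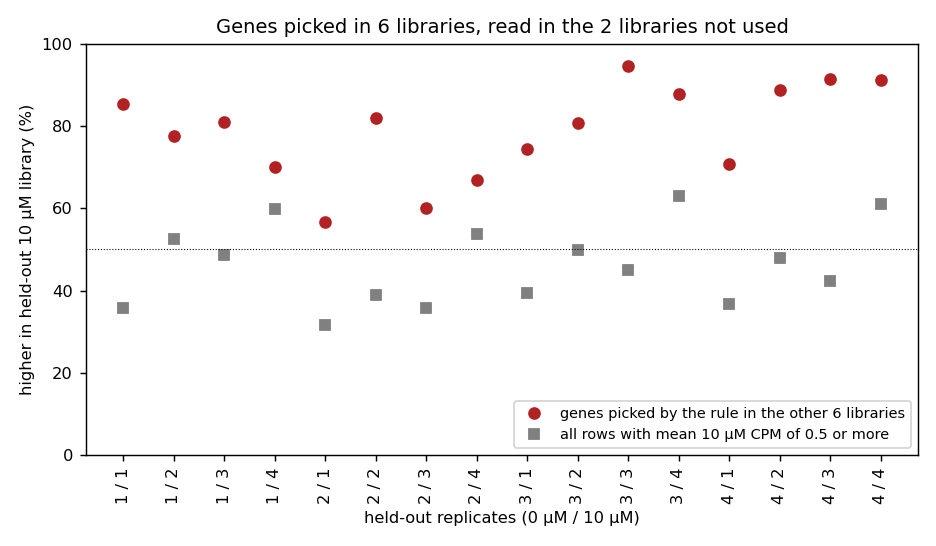
Percentage of genes higher in the held-out 10 µM heme library than in the held-out 0 µM library, for the 16 pairs named on the horizontal axis by their replicate numbers, with the genes picked in the other 6 libraries as red points and all identifiers with 0.5 CPM or more as grey squares. The red points lie between 56.8% and 94.7%, above the grey square of the same pair each time.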

How the data were processed

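The authors deposited a table of raw, unnormalized counts for the 8 libraries. Per the study's methods and the submitters' processing notes, single-end reads were aligned to AaegL5 with HISAT2 2.1.0, filtered on mapping quality in SAMtools, and counted per transcript with bedtools 2.19.1. The sources used here do not state the treatment of strand, of spliced reads or of reads shared by genes. Groups and replicate numbers came from the labels.

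CPM used library totals after the 37 identifiers of the rule were removed. The members, lists and window were chosen with earlier results of these data known. Tests over all identifiers used the edgeR 4.0.16 exact test in R 4.3.3 (filterByExpr, TMM, Benjamini-Hochberg adjustment), with its quasi-likelihood test and DESeq2 1.42.0 as alternatives. Only the exact test was run on simulated data, where its share of false calls was above the nominal rate. The tests measure the spread between these pooled samples. Other alternatives concerned scaling, the thresholds of the rule, the count filter and single libraries.

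Genes named were the 10 of highest ratio, highest 10 µM CPM and highest gap, those at the ratio threshold, and those the study names or lists. Other identifiers in the text were chosen after their values were seen. None of the identifiers matched the RefSeq AaegL5.0 gene table by name (0 matches), so names came from the study's tables, of which 1 was held only in part, with 1547 identifiers. Sequences were not used here.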

Additional observations from a re-analysis of the deposited data

Results flagged for a closer look

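For the 32 genes named by rule and the summed CPM of the raised genes, with and without the 5 of highest CPM, 68 groups of 4 values were screened for a library set apart from the other 3. Of these, 4 groups exceeded the 95% critical value of Dixon, about the 3.4 that chance alone gives at 1 in 20. In AAEL008467, cysteine synthase, this was 10 µM heme replicate 3 with 3.30 CPM, below the 4.95 to 5.04 CPM of its group. In AAEL004700 it was 0 µM heme replicate 2 with 85.7 CPM, above 66.0 to 68.5 CPM, and the same library was high in AAEL003540 with 7.27 CPM, above 6.17 to 6.33 CPM. AAEL002490 had 0 CPM in 0 µM heme replicate 3, against 0.0182 to 0.0218 CPM in its group, which is a count of 0 against counts of 1.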

How the results depend on the processing

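The number of genes kept depended on the rule's thresholds, as their construction implies. It was 145 with a ratio of 1.5, 48 with a ratio of 2, 153 without a floor, 41 with a floor of 5 CPM, and 183 with overlapping groups allowed, against 86. Other scalings gave 108 (TMM, 83 of the 86 shared), 105 (DESeq2 size factors, 84 shared) and 65 (totals with the removed identifiers). Under the last, AAEL006239, AAEL006686, AAEL019648 and AAEL028119 were among the genes lost through overlapping groups. Leaving out single libraries gave 84 to 152 genes, with 152 without 0 µM heme replicate 2 and 130 without 10 µM heme replicate 1, and the cause was not tested. The count of raised genes called by the exact test was then 64 to 74 against 79, and the ratio of summed CPM was 2.33 to 2.61 against 2.47.

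The median share in held-out pairs was 81.9% under TMM, 79.1% with a ratio of 2 and 85.4% with a floor of 5 CPM, against 80.9%. These shares also hold genes that met the rule over all 8 libraries, so they describe the rule only. Depth limits the 21 genes whose 0 µM counts were all under 30.

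No pairing by replicate number was assumed in the exact test. For each gene, the log CPM of a library was expressed as its deviation from the group mean. Across genes, the correlation of these deviations between the 2 libraries of a number was 0.515, 0.0702, 0.0616 and 0.157 for numbers 1 to 4. All were positive, that of number 1 was the largest, and a shared effect of replicate number was not tested. The replicate block raised the calls of the quasi-likelihood test from 55 to 71 of the 85 raised genes, and from 146 to 351 of all identifiers called higher.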

Other observations

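Outside the set, 97 identifiers reached the floor and the ratio but had overlapping groups. AAEL002481, close in number to the raised genes AAEL002488 and AAEL002490 and singled out after its values were seen, had 2.42, 10.1, 4.74 and 14.9 CPM at 0 µM and 11.6, 21.7, 40.1 and 30.3 CPM at 10 µM heme. Its ratio of means was 3.23, and 10 µM replicate 1 lay below 0 µM replicate 4. A further 67 identifiers had groups apart and the ratio but a mean under 0.5 CPM at 10 µM heme.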
